A study of Mus musculus with 2 samples.

Results

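A set of 9 genes of the Notch pathway and of retinal progenitors was followed in Müller glia, the radial glia that span the mouse retina. They were the ligand gene Dll1, the receptor gene Notch1, the Notch target genes Hes1, Hes5 and Hey1, the progenitor transcription factor genes Sox2 and Sox9, and Id1 and Id3, which encode inhibitors of DNA binding. All 9 were found by symbol among the 31053 genes in the files. Müller glia were cells with at least 10 UMIs (unique molecular identifiers, 1 per captured transcript) summed over Slc1a3, Aqp4 and Rlbp1 and with C1qa, C1qb and C1qc together under 0.1% of UMIs. This gate held 30 of 5573 kept cells in the PBS library and 639 of 9441 in the NaIO3 library.

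The series is droplet single-cell RNA sequencing of mouse retina after sodium iodate (NaIO3), which oxidises and kills pigment epithelium, after which photoreceptors degenerate. One group received 20 mg per kg of NaIO3 into a vein, the other the same volume of phosphate-buffered saline (PBS), and retinas were taken on day 7. Retinas of 6 mice were pooled into a single library for each treatment, so differences below come without replicates and without tests. The deposited matrices are named C57 for both groups, the labels give neither genotype, age nor sex, and they call both libraries CD11b-positive microglia, whereas their text describes bead selection for the NaIO3 pellets alone.

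In a developing retina, a Delta ligand on one cell activates Notch on its neighbour, the released receptor domain joins the DNA-binding protein RBPJ, and HES and HEY repressors hold the neighbour in a progenitor state. Müller glia keep several of these genes into adult life, together with SOX2 and SOX9, which progenitors also use. ID proteins bind the partners of proneural factors and keep them off DNA, and BMP signalling is a well-known inducer of their genes. In fish, Müller glia re-enter the cell cycle and replace neurons after injury, and Notch activity restrains this. In mice they mostly become reactive instead.

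The promoter of Hes5, of the 9 the gene with the widest difference in Müller glia, is shown because it holds 2 runs of the letters GTGGGAA, a sequence RBPJ is known to bind. They are in capitals below (on the other strand they read TTCCCAC). The stretch is the 250 bases before the Hes5 start on the forward strand, from RefSeq on build GRCm38.p6, chr4:154960673-154960922.
Hes5: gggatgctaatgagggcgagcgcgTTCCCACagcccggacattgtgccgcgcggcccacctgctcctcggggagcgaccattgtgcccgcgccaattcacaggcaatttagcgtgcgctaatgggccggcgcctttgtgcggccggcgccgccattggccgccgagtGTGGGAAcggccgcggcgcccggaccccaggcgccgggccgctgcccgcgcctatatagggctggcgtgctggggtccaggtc
The pair of matches begins 226 and 83 bases before the start, one on each strand. Of 32851 RefSeq promoter windows of this length, 5.42% held at least 1 match on either strand and 0.161% held 2 or more. Promoter windows of Notch1, Sox2, Id3 and Dll1 (which has 2 windows) held no match. Windows were found for these 5 genes of the 9, so Hes1, Hey1, Sox9 and Id1 were not searched. A match is a run of letters, and binding was not measured here.

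The gated cells were checked first. All 8 Müller markers, none of which was used in the gate, were detected in both libraries and summed in PBS to 15951 CPM (a gene's UMIs over all UMIs of the class, on the usual CPM scale, not corrected for gene length) and in NaIO3 to 10766 CPM. Glul, the glutamine synthetase gene, had a UMI in all 30 PBS and all 639 NaIO3 cells, at a lower level in NaIO3, with a ratio of 0.374 (0.358 to 0.390). The gate gene Rlbp1, for a retinoid-binding protein, had a ratio of 0.227 (0.212 to 0.244). The other gate genes had 0.580 (0.523 to 0.644) for Slc1a3 and 0.649 (0.576 to 0.734) for Aqp4. The gate asks for a fixed number of UMIs of these genes, so deeper cells can pass it at a lower CPM. As the NaIO3 cells were deeper, the ratios of the gate genes cannot tell whether Müller glia held less of them. In the cells with little rod RNA, defined below, Glul had 0.467 (0.441 to 0.496). The gate genes, under the same limit, had 0.337 (0.303 to 0.376) for Rlbp1, 0.731 (0.634 to 0.846) for Slc1a3 and 0.753 (0.646 to 0.881) for Aqp4. The 8 Müller markers did not move as one there. Abca8a, Glul and Gpr37 were at least 2 times lower, while Clu was higher, at 2.387 (2.196 to 2.599). Kcnj10 had 1.02 (0.716 to 1.498), which includes 1. The median log2 ratio of the 8 was -0.667. Markers of other cells were present too. The 8 microglia markers summed to 20.95 CPM in PBS (2 of 8 detected) and 47.3 CPM in NaIO3 (8 of 8). Those of cones summed to 700.4 and 1082 CPM (7 of 7 in both), those of bipolar cells to 272 and 365 CPM (7 of 7 in both) and those of astrocytes, with Gfap among them, to 50.9 CPM (3 of 4) and 202 CPM (4 of 4). Pax2, a gene of retinal astrocytes, had 0 and 8 UMIs. The gated cells were deeper in NaIO3, with a median of 29825 UMIs against 7565.5 in PBS.

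Rod RNA moved with the library. The 8 rod markers took a median of 0.0993% of a cell's UMIs in PBS Müller glia and 1.96% in NaIO3 Müller glia, against 6.95% and 4.02% in rods of the same libraries. In the gate, 3 PBS cells also passed a pigment epithelium gate, with 30 to 69 Rpe65 UMIs, 0 Aqp4 UMIs and 4 UMIs of the 9 genes in all. One further PBS cell held 95037 UMIs, 28.4% of the PBS total of the gate. The rod markers summed over the gate to 23146 CPM in PBS and 22136 CPM in NaIO3. A second comparison was therefore made, after these values had been seen, in cells with rod markers under 0.25% of UMIs and outside the pigment epithelium gate. It kept 19 PBS cells (median 6670 UMIs) and 82 NaIO3 cells (median 12115 UMIs), called cells with little rod RNA below. In them the rod markers summed to 710 and 592 CPM and the Müller markers to 24580 and 21242 CPM. Markers of other cells still moved with the library there. The bipolar markers summed to 56.5 CPM in PBS (3 of 7 detected) and 436 CPM in NaIO3 (7 of 7), and those of astrocytes to 80.7 CPM (2 of 4) and 451 CPM (4 of 4), of which Gfap made up 0 and 299 CPM. The microglia markers summed to 16.1 and 62.1 CPM and the cone markers to 16.1 and 16.6 CPM. The part of these other cells in the results below was not tested. Both libraries shared 24 barcodes, 2 of them in NaIO3 Müller glia and 0 in PBS Müller glia.

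Across the whole gate, Hes5, Id1, Id3 and Hey1 were at least 2 times lower in NaIO3 Müller glia, and none of the 9 that passed the filter on low values was at least 2 times higher. Of the 9, 8 passed that filter (20 CPM in either library and 20 summed UMIs), Dll1 being the exception. Over all 8370 genes that passed it, 10.4% were at least 2 times lower and 12% at least 2 times higher. The median log2 ratio of NaIO3 over PBS was -1.36 over the 8 genes and 0.07 over all 8370. In cells with little rod RNA the same 4 genes were at least 2 times lower, and 14.7% of 7586 genes were that much lower and 12.3% that much higher. There the median log2 ratio was -1.25 over the 8 genes and -0.14 over all genes. Levels below are summed CPM with exact Poisson intervals, and ratios have exact conditional binomial (Clopper-Pearson) intervals. All are 95% intervals and cover counting error only.

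**Figure D1:**
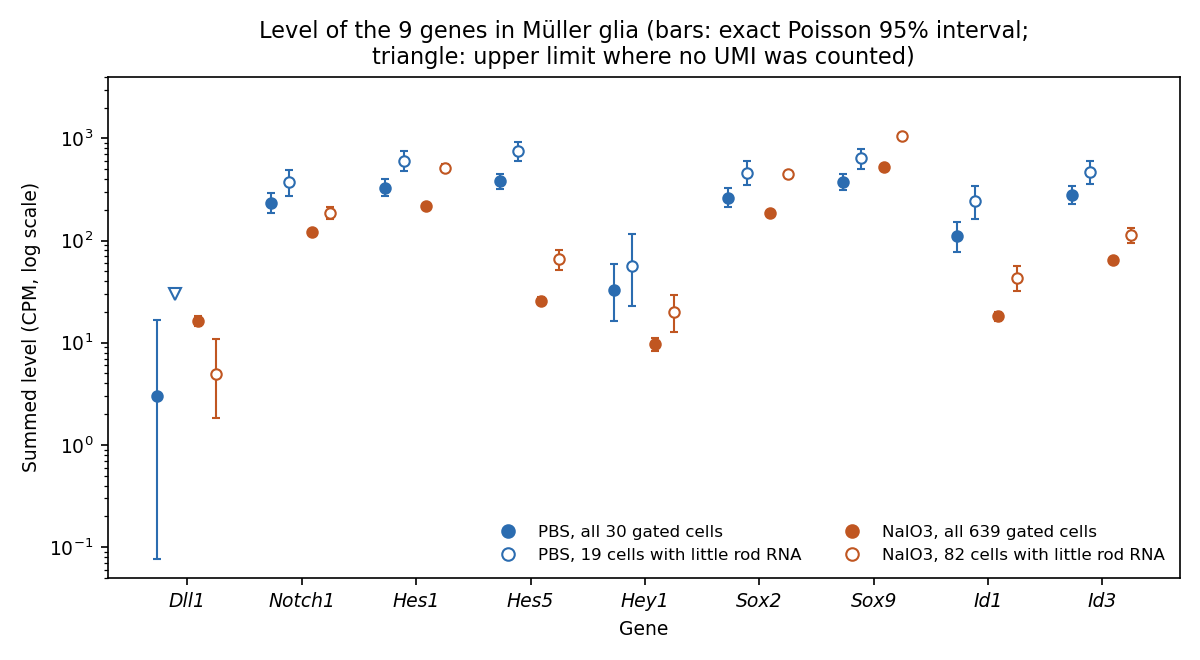
Summed level of each gene in Müller glia (y axis, CPM, log scale), in PBS (blue) and NaIO3 (orange), over all gated cells (filled) and over cells with little rod RNA (open), with exact Poisson 95% intervals. Hes5 reads 380 CPM for PBS and 25.8 CPM for NaIO3 over all gated cells. The 2 colours stay apart in both sets of cells for Hes5, Id1, Id3 and Notch1, lower in NaIO3, and for Sox9, higher in NaIO3.

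Dll1, the Delta ligand that activates Notch on a neighbouring cell, was sparse in PBS Müller glia. It had 1 UMI in PBS, or 2.99 CPM (0.0758 to 16.7), and 348 UMIs in NaIO3, or 16.4 CPM (14.7 to 18.2), in 218 of 639 cells. The ratio of 5.49 had an interval of 0.978 to 217, which includes 1. In cells with little rod RNA it had 0 UMIs in PBS (up to 29.8 CPM) and 6 UMIs in NaIO3, or 4.97 CPM (1.82 to 10.8). The NaIO3 level in the whole gate was thus above that in the cells with little rod RNA, and their intervals do not overlap.

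Notch1, the receptor gene, stood at 233 CPM (185 to 291, 78 UMIs) in PBS Müller glia and 121 CPM (116 to 125, 2558 UMIs) in NaIO3 Müller glia. It was 1.93-fold lower in NaIO3 (1.52 to 2.42). In the cells of low rod RNA the levels were 371 CPM (272 to 495) and 186 CPM (163 to 212), 1.99-fold lower (1.42 to 2.75). Notch1 was lower in NaIO3 by nearly the same factor in both sets, just short of 2. It passed 2 over the gate without the deepest PBS cell, at 2.50-fold lower (1.95 to 3.15).

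Hes1, a repressor that Notch and other signals induce, stood at 329 CPM (271 to 397, 110 UMIs) in PBS and 217 CPM (211 to 223, 4599 UMIs) in NaIO3. That is 1.52-fold lower (1.24 to 1.83). With little rod RNA it stood at 605 CPM (476 to 759) and 514 CPM (475 to 556), a ratio of 0.850 (0.668 to 1.09). A ratio of 1 lies inside that interval, so a difference in Hes1 was not detectable at this depth once rod RNA was low in both libraries. Over the gate without the deepest PBS cell, Hes1 was 2.04-fold lower (1.67 to 2.48).

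Hes5, the target gene whose promoter is shown above, stood at 380 CPM (317 to 452, 127 UMIs) in PBS and 25.8 CPM (23.7 to 28.1, 547 UMIs) in NaIO3, 14.7-fold lower (12.04 to 17.9). Where rod RNA was low, it stood at 750 CPM (606 to 919) and 65.4 CPM (51.8 to 81.6), 11.5-fold lower (8.41 to 15.7). One PBS cell carried 46 of the 127 PBS UMIs. Without that cell Hes5 was 9.79-fold lower over the gate (7.66 to 12.4) and 6.51-fold lower in cells with little rod RNA (4.44 to 9.46). Hes5 was thus lower in NaIO3 with or without rod-rich cells and with or without its highest PBS cell.

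Single cells showed the same order for Hes5. In PBS cells with little rod RNA, 13 of 19 had a Hes5 UMI and the median was 170 CPM, with a highest cell at 3386 CPM. In NaIO3, 26 of 82 had one and the median was 0 CPM, yet the highest cell reached 2059 CPM. Cells high in Hes5 were present in both libraries. Hes1 was more widely detected, in 16 of the 19 PBS and 71 of the 82 NaIO3 cells.

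Hey1, a repressor related to the HES proteins, was sparse. It had 11 UMIs in PBS Müller glia, or 32.9 CPM (16.4 to 58.9), each in a different cell, and 204 UMIs in NaIO3, or 9.63 CPM (8.35 to 11.04). It was 3.42-fold lower (1.68 to 6.25). Among cells with little rod RNA it was 2.84-fold lower (1.03 to 6.80), on 7 PBS UMIs, and without 1 of the PBS cells the interval of 0.8697 to 6.53 included 1.

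Sox2, which progenitors and Müller glia need to keep their identity, stood at 263 CPM (211 to 325, 88 UMIs) in PBS and 185 CPM (180 to 191, 3930 UMIs) in NaIO3, 1.42-fold lower (1.14 to 1.75). In the cells of low rod RNA the levels were 460 CPM (348 to 596) and 445 CPM (408 to 484), a ratio of 0.967 (0.735 to 1.29). As for Hes1, the interval of that ratio includes 1.

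Sox9, a transcription factor gene of Müller glia and of progenitors, went the other way. It stood at 377 CPM (314 to 449, 126 UMIs) in PBS and 520 CPM (511 to 530, 11027 UMIs) in NaIO3, a ratio of 1.38 (1.16 to 1.66). With little rod RNA it stood at 637 CPM (505 to 795) and 1059 CPM (1002 to 1119), a ratio of 1.66 (1.32 to 2.11). The median cell held 590 CPM in PBS and 964 CPM in NaIO3, and 62 of 82 NaIO3 cells were above the PBS median. Over the whole gate but without the deepest PBS cell, the ratio was 1.10 (0.915 to 1.34), which includes 1.

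Id1, which encodes an inhibitor of proneural factors, stood at 111 CPM (78.0 to 153, 37 UMIs) in PBS and 18.1 CPM (16.3 to 20.0, 383 UMIs) in NaIO3, 6.13-fold lower (4.25 to 8.60). Where rod RNA was low, it was 5.62-fold lower (3.46 to 8.98), from 242 CPM (163 to 346) to 43.1 CPM (32.2 to 56.5). Id3, its close relative, stood at 281 CPM (227 to 344, 94 UMIs) in PBS and 64.3 CPM (60.9 to 67.8, 1363 UMIs) in NaIO3, 4.37-fold lower (3.51 to 5.39). Among cells with little rod RNA it was 4.12-fold lower (2.98 to 5.65), from 468 CPM (355 to 605) to 113 CPM (95.3 to 134). Id3 had a UMI in 18 of the 19 PBS cells and in 40 of the 82 NaIO3 cells, although the NaIO3 cells were deeper.

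**Figure D2:**
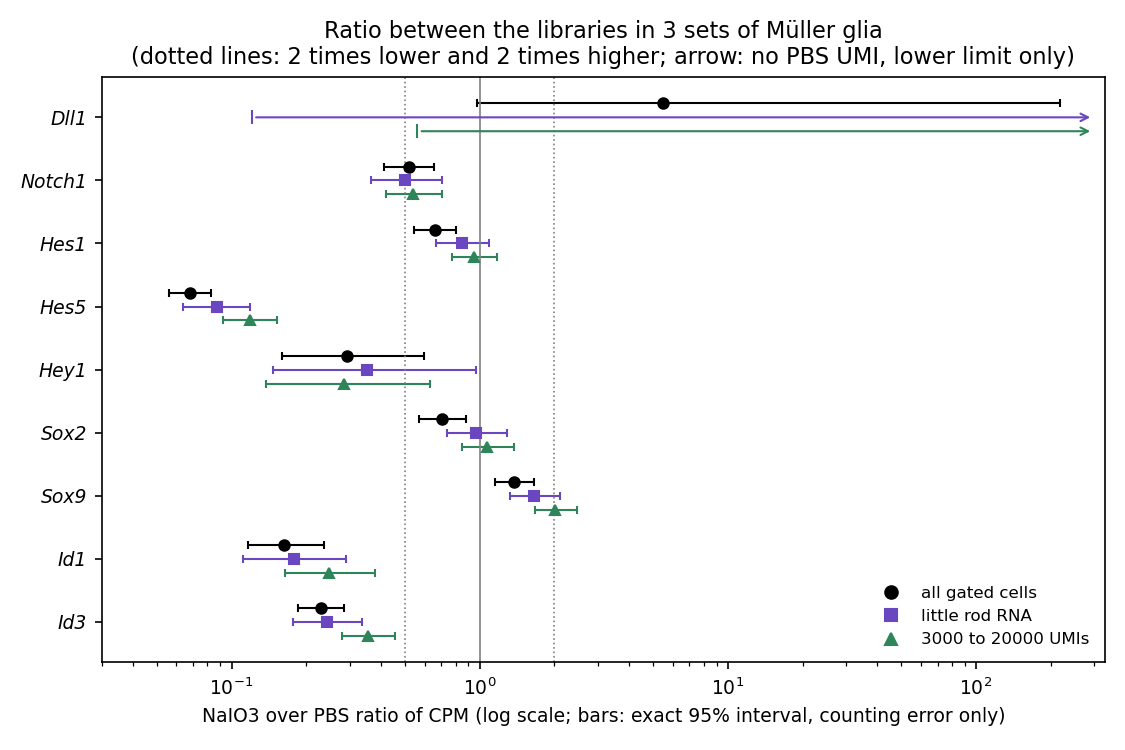
NaIO3 over PBS ratio of each gene (x axis, log scale, no unit) with exact 95% intervals, over all gated cells (black circles), cells with little rod RNA (purple squares) and cells of 3000 to 20000 UMIs (green triangles). Hes5, Id1, Id3 and Hey1 lie left of the 2-fold line in all 3 sets, Sox9 lies right of 1 in all 3, and Hes1 and Sox2 reach 1 in the last 2 sets.

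Depth was also matched more closely, in cells of 3000 to 20000 UMIs (26 in PBS with a median of 7802.5 UMIs and 167 in NaIO3 with a median of 13418). There Hes5 was 8.40-fold lower (6.53 to 10.8), Id1 4.06-fold lower (2.65 to 6.11) and Id3 2.82-fold lower (2.20 to 3.58). Sox9 was 2.02-fold higher (1.66 to 2.46), and Hes1 had a ratio of 0.947 (0.773 to 1.17).

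Shares of cells with a UMI were compared after every cell had been thinned to 1000 UMIs. A Hes5 UMI was then found in 36.7% of PBS Müller glia (19.9 to 56.1, exact binomial) and 3.13% of NaIO3 Müller glia (1.92 to 4.79). Rods, which served as the background of free RNA, showed 0.9996% in PBS and 0.262% in NaIO3 (median depths 2471 and 2664 UMIs before thinning, against 7565.5 and 29825 in Müller glia). For Id3 the Müller shares were 40.0% (22.7 to 59.4) and 7.04% (5.18 to 9.31), and for Id1 they were 16.7% (5.64 to 34.7) and 2.19% (1.203 to 3.65). Without thinning, the Hes5 shares were 60.0% and 28.2%. For Sox9 the thinned shares were 33.3% (17.3 to 52.8) and 43.5% (39.6 to 47.5), whose intervals overlap. Among cells with little rod RNA, the Hes5 shares were 36.8% (16.3 to 61.6) and 8.54% (3.50 to 16.8), and the Sox9 shares were 36.8% (16.3 to 61.6) and 62.2% (50.8 to 72.7). There the intervals overlap for Sox9 and, by a small margin, for Hes5.

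Within the NaIO3 library, levels of most of the 9 genes were lower where rod RNA was higher. From the 83 Müller glia with under 0.25% rod markers to the 124 with over 3%, Sox9 went from 1059 to 337 CPM, Hes1 from 520 to 133 CPM and Sox2 from 442 to 134 CPM. Glul went from 5230 to 2185 CPM over the same bins, and the median depth from 12112 to 38359.5 UMIs. Dll1 ran the other way, from 4.95 CPM (1.82 to 10.8) to 15.8 CPM (12.6 to 19.7). In every one of the 6 bins Hes5 was at or under 65.1 CPM, below the 750 CPM of the PBS cells with little rod RNA. The part of rod RNA and depth in the whole-gate ratios was not tested beyond these values.

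**Figure D3:**
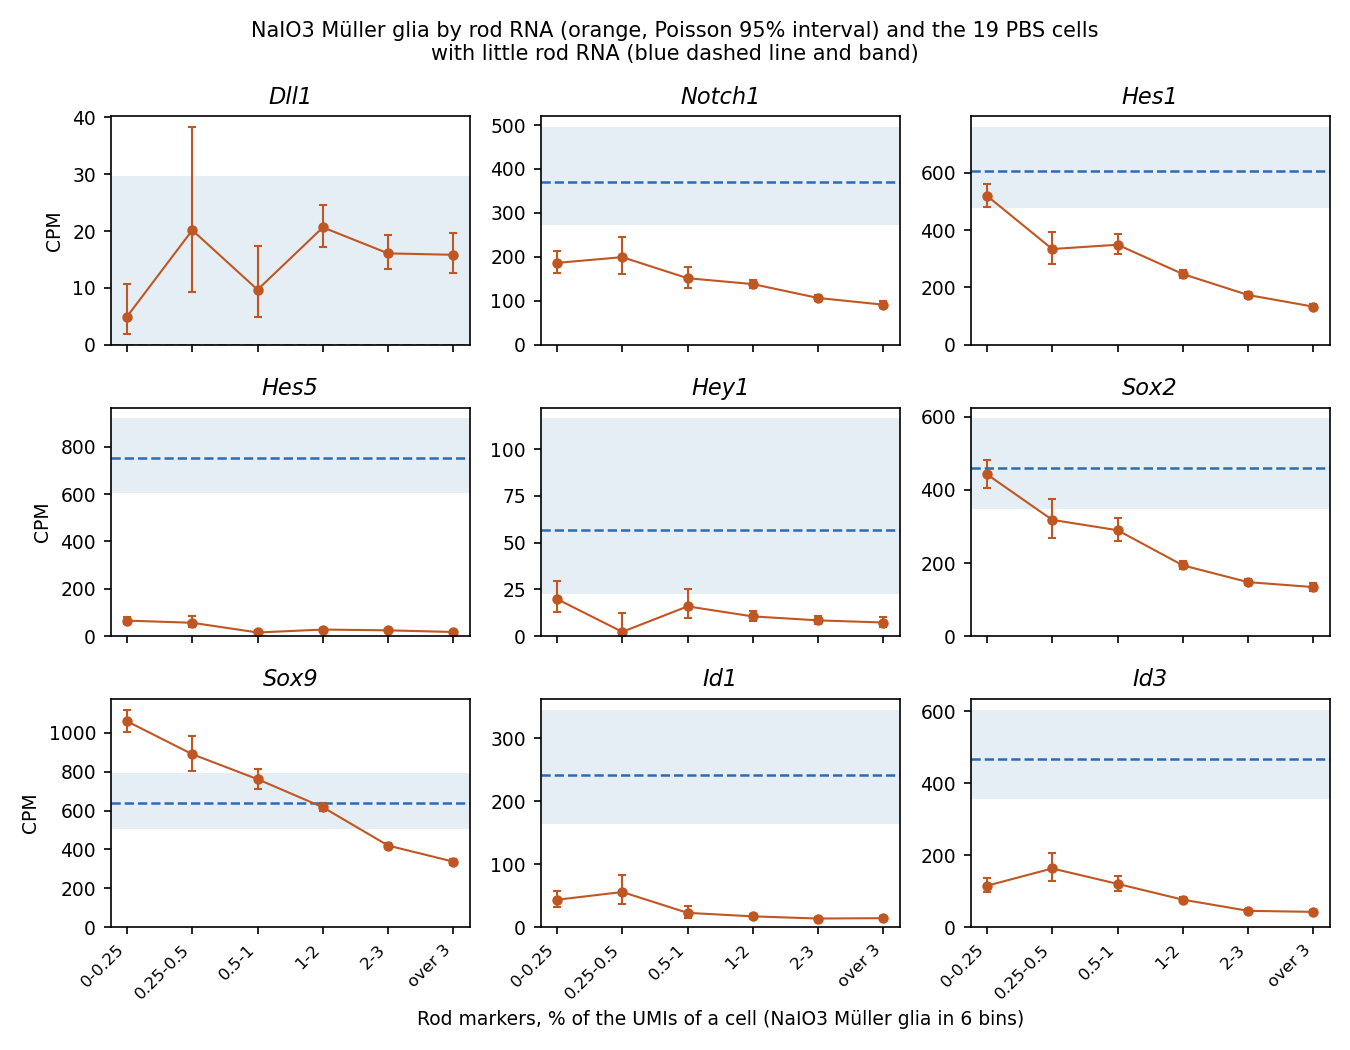
Level of each gene (y axes, CPM) in NaIO3 Müller glia in 6 bins of rod marker share (x axis, % of a cell's UMIs), in orange with Poisson 95% intervals, beside the 19 PBS cells with little rod RNA (blue dashed line and band). Hes1 and Sox2 start within the PBS band and leave it as rod RNA rises, Sox9 starts above it at 1059 CPM, and Hes5, Id1, Id3 and Notch1 lie below it in every bin.

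Wider lists of pathway genes, chosen with earlier results of these data known, were counted in the same cells. Some lists hold members too, so they are not separate from the members. Genes were counted by their ratio alone, as were the 10.4% lower and 12% higher of all genes above. Where the interval had to leave out 1 as well, those shares were 9.59% and 9.78%. Of 12 ligand and receptor genes, Dll1 and Notch1 among them, 3 passed the filter. Of these, 0 were at least 2 times higher and 1 was at least 2 times lower. Their median log2 ratio of -0.95 is that of Notch1 itself. The lower one was Notch2, a second Notch receptor gene, with 189 CPM for PBS and 75.2 CPM for NaIO3, a ratio of 0.399 (0.310 to 0.522). Jag1, a ligand gene of the Jagged family, stood at 62.9 and 72.9 CPM, a ratio of 1.16 (0.756 to 1.88). In the cells of low rod RNA it had 0 and 4 UMIs, so hardly any of the Jag1 counted in the gate came from those cells. Notch2 there kept a ratio of 0.498 (0.343 to 0.743).

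Of 11 Notch target genes, Hes5, Hes1, Hey1 and Sox9 among them, 8 passed the filter. Cdkn1a was at least 2 times higher and 3 were at least 2 times lower, namely Hes5, Hey1 and Nrarp. The median log2 ratio was -0.75. In cells with little rod RNA the same genes passed 2 times in the same directions, among 9 tested. The median there was -0.23, that of Hes1 itself. Nrarp, a target that feeds back on Notch, stood at 62.9 CPM (21 UMIs) in PBS and 21.8 CPM in NaIO3, a ratio of 0.346 (0.224 to 0.565). With little rod RNA its ratio was 0.302 (0.168 to 0.570). Cdkn1a, which encodes the cell cycle inhibitor p21, had a ratio of 4.68 (1.60 to 22.7) on 3 PBS UMIs. Further targets within 2-fold were Hey2 at 0.861 (0.597 to 1.29) and the cyclin gene Ccnd1 at 0.540 (0.412 to 0.722).

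Of 25 genes for enzymes and modulators of the pathway, 22 passed, 2 were at least 2 times higher and 2 at least 2 times lower, with a median log2 ratio of 0.13. Lfng, a fringe glycosyltransferase gene that tunes ligand choice, had a ratio of 0.334 (0.203 to 0.591), and 0.411 (0.194 to 0.969) in cells with little rod RNA. Aph1b, a gamma-secretase subunit gene, had 0.442 (0.273 to 0.766), and 0.689 (0.310 to 1.81) in cells with little rod RNA. The higher pair were the histone acetyltransferase gene Crebbp at 2.01 (1.39 to 3.02) and Neurl1a, a ubiquitin ligase gene, at 2.78 (1.08 to 10.2). Where rod RNA was low, Crebbp had 1.54 (0.880 to 2.94), and Neurl1a had 0 and 8 UMIs. Among 20 genes tested there, Mib1 and Numb were at least 2 times higher and Furin, Lfng and Maml2 at least 2 times lower, named after their values were seen, and the median was -0.02. The intervals of Numb (0.703 to 22.6, on 2 PBS UMIs) and Maml2 (0.167 to 1.53, on 5 PBS UMIs) include 1.

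Among 27 genes of the ID, BMP and TGF-beta group, members Id1 and Id3 included, 16 passed. Of these, 0 were at least 2 times higher and 3 at least 2 times lower, namely Id1, Id3 and Id4. Id4 stood at 35.9 CPM (12 UMIs) in PBS and 5.76 CPM in NaIO3, a ratio of 0.1603 (0.0885 to 0.319), and 0.246 (0.114 to 0.577) in cells with little rod RNA. Tcf4, an E-protein gene whose product ID proteins can bind, had a ratio of 1.03 (0.896 to 1.19), and Tgfb2, a TGF-beta ligand gene, 0.735 (0.624 to 0.872). The BMP receptor gene Bmpr2 had 1.59 (1.18 to 2.21). The median log2 ratio of the 16 genes was -0.36. With little rod RNA, Id1, Id3, Id4 and Smad7 of 17 tested were at least 2 times lower and Bmpr2, at 2.07 (1.16 to 4.06), higher, with a median of -0.20. Smad7, an inhibitor of TGF-beta and BMP signals, had a ratio of 0.246 (0.114 to 0.577) there and 0.510 (0.301 to 0.941) over the gate.

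Of 17 retinal progenitor genes, Sox2 and Sox9 among them, 13 passed. Of these, 1 was at least 2 times higher and 4 at least 2 times lower. Their median log2 ratio of -0.51 is that of Sox2 itself. The lower ones were the eye-field transcription factor genes Rax (0.475, 0.399 to 0.568), Lhx2 (0.437, 0.370 to 0.521) and Six6 (0.496, 0.395 to 0.632), and Sox8, a relative of Sox9 (0.322, 0.237 to 0.449). Among cells with little rod RNA Rax had 0.424 (0.326 to 0.557) and Sox8 0.423 (0.271 to 0.683), while Lhx2 and Six6 had 0.569 (0.457 to 0.715) and 0.576 (0.417 to 0.813). Pax6, the master gene of eye development, had 0.803 (0.668 to 0.972) over the gate and 1.06 (0.831 to 1.36) in cells with little rod RNA. The higher one was Nes, a filament gene of progenitors and reactive glia, named after its values were seen. It had a ratio of 2.40 (0.815 to 11.7) on 3 PBS UMIs. Among cells with little rod RNA, Meis2, Nes and Sox4 of 13 tested were at least 2 times higher, named after their values were seen. Rax and Sox8 were at least 2 times lower, and the median was -0.05, again that of Sox2. Sox4 had a ratio of 2.70 (1.28 to 6.80). Meis2 had 5.03 (0.861 to 203), an interval that includes 1, on 1 PBS UMI. Nes had 0 UMIs in PBS and 63 in NaIO3, and was at least 2.16-fold higher against a floor of 3 counts.

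The 6 genes of a list linked to quiescence all passed, and 0 of them were at least 2 times higher or lower, in the gate as in cells with little rod RNA. Their median log2 ratio was -0.28 over the gate and 0.09 with little rod RNA. Nfia, which helps keep mouse Müller glia from re-entering the progenitor state, had a ratio of 0.792 (0.654 to 0.969), and 1.06 (0.819 to 1.39) in cells with little rod RNA. Nfix had 1.02 (0.847 to 1.25).

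Neurod1, a transcription factor gene of neuronal differentiation, had a ratio of 5.12 (4.22 to 6.26) over the gate, from 314 to 1608 CPM. Within the NaIO3 Müller glia, the Neurod1 level rose with rod RNA over the 6 bins. It went from 75.04 CPM in cells with under 0.25% rod markers to 1944 CPM in those with over 3%. In the cells of low rod RNA its levels were 16.1 CPM (2 UMIs) and 75.4 CPM, a ratio of 4.67 (1.26 to 39.1). Of 12 proneural and photoreceptor precursor genes, 5 passed, 2 were at least 2 times higher (Neurod1 and Insm1) and 0 at least 2 times lower, with a median log2 ratio of 0.85. Of the 12, 4 passed with little rod RNA, 3 were at least 2 times higher and 0 at least 2 times lower, with a median of 1.48. The higher ones were Neurod1, Neurod4 (on 0 PBS UMIs) and Otx2 (on 1 PBS UMI, with an interval of 0.457 to 113). Neurod1 is also a gene of photoreceptors, and these cells differed in bipolar markers, at 56.5 and 436 CPM. The part of other cells' RNA in these ratios was not tested.

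Of 16 proliferation genes 5 passed, with Ccnd2, a cyclin gene, at 4.39 (1.71 to 16.1) on 4 PBS UMIs and Stmn1, a microtubule regulator gene, at 0.466 (0.377 to 0.582). The median log2 ratio was -0.24. In the cells of low rod RNA 12 passed, Ccnd2, Mki67 and Top2a were at least 2 times higher and Tyms lower (0.488, 0.162 to 1.97), named after their values were seen. Mki67 and Top2a had 0 PBS UMIs there. The median there was 0.15, and Stmn1 had a ratio of 0.755 (0.561 to 1.04), which includes 1. Mki67, a gene of cycling cells, had 155 UMIs in 22 of 639 NaIO3 Müller glia, 93 of them in cells with little rod RNA. In PBS it had a UMI in 0 of 30 cells, whose exact binomial interval reaches 11.6%. Of 15 reactive glia genes, all passed and 13 were at least 2 times higher, with a median log2 ratio of 2.90, among them Lcn2 at 288 (79.6 to 2376) on 2 PBS UMIs and Gfap at 43.8 (7.85 to 1730) on 1 PBS UMI. With little rod RNA 14 passed and 11 were at least 2 times higher, with a median of 2.19. Edn2 and Fgf2, among the 13 over the gate, were not among these 11. Edn2 had 0 and 3 UMIs there, and Fgf2 had 1.61 (0.757 to 4.11), which includes 1.

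The Lcn2 level divided the NaIO3 Müller glia into 225 cells with at least 0.1% Lcn2 and 414 with less. Id3 stood at 77.9 CPM (71.9 to 84.3) in the former and 56.3 CPM (52.4 to 60.5) in the latter, and Hes5 at 21.9 CPM (18.7 to 25.4) and 28.1 CPM (25.3 to 31.1), where the intervals just overlap. With little rod RNA Id3 stood at 205 CPM (159 to 261) in 21 cells with at least 0.1% Lcn2 and at 79.4 CPM (61.9 to 100.4) in the other 61. Both Id3 levels are below the 468 CPM of the PBS cells. Sox9 ran the other way, at 862 CPM (764 to 968) in the 21 cells and 1133 CPM (1063 to 1205) in the 61. So did Hes5, at 33.7 CPM (16.8 to 60.3) and 77.2 CPM (59.9 to 97.8), where the intervals just overlap. Intervals of the other members overlapped between these 2 sets of cells.

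Between cells, the 9 genes went together only weakly. Over 596 NaIO3 Müller glia thinned to 10000 UMIs, the highest Spearman correlation was 0.35, between Sox2 and Sox9, followed by 0.25 between Hes1 and Sox9. Hes1 and Hes5 had 0.15, and Id1 and Id3 had 0.18. Dll1 had -0.13 with Sox2. These cells share 1 library and differ in rod RNA, and values this low are given as description alone.

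The other marker-gated classes came next. Among classes with at least 20 cells, Hes1, Hes5, Sox2 and Sox9 stood highest in Müller glia of both libraries. Notch1 did too, although its NaIO3 level in endothelial cells was 106 CPM (91.9 to 121), whose interval overlaps that of Müller glia. Dll1 stood highest in cones of both libraries, and Id1 and Id3 in Müller glia of PBS and endothelial cells of NaIO3. Classes other than Müller glia were counted from cells that passed 1 gate alone. With cells of 2 gates counted in both, which puts Müller glia into other classes too, 39 of 108 of these levels moved beyond their intervals, and results that this turns or ends are given with it below.

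**Figure D4:**
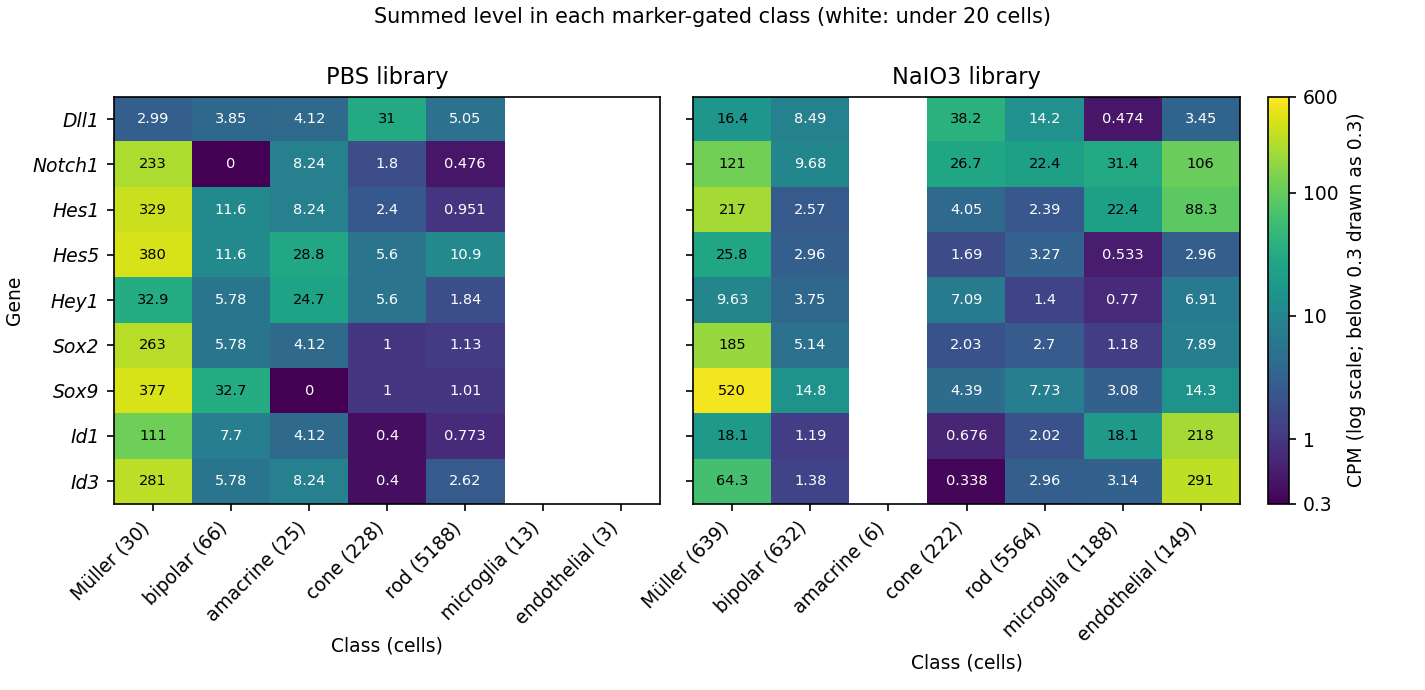
Summed level (colour and printed value, CPM, log colour scale) of each gene (rows) in each marker-gated class (columns, number of cells in brackets) of the PBS and NaIO3 libraries, white where a class had under 20 cells. Müller glia hold the highest level of Hes1, Hes5, Sox2 and Sox9 in both libraries, and Notch1 in rods reads 0.476 CPM in PBS and 22.4 CPM in NaIO3.

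Id1 and Id3 mark vessels as well as glia. In NaIO3 endothelial cells (149 cells) Id1 stood at 218 CPM (198 to 239) and Id3 at 291 CPM (268 to 315). In the 3 PBS endothelial cells they stood at 1078 CPM (574 to 1844, 13 UMIs) and 2322 CPM (1543 to 3356, 28 UMIs), above the NaIO3 intervals but in very few cells. With cells of 2 gates counted in both, endothelial Id1 read 254 CPM for PBS and 42.5 CPM for NaIO3, and Id3 at 404 and 90.4 CPM. Both were then lower than in the first count. Of Müller glia, 19 of 30 PBS and 562 of 639 NaIO3 cells passed the endothelial gate. The second count therefore mixes both classes and cannot tell whether endothelial levels differ. The NaIO3 endothelial cells of the first count also held microglia markers at 2864 CPM and the PBS ones at 0. The part of microglia RNA in the difference of the first count was not tested. In Müller glia the 6 endothelial markers summed to 1200 CPM in PBS (4 of 6 detected) and 912 CPM in NaIO3 (6 of 6), of which Flt1 made up 614 and 357 CPM. Flt1 had a UMI in 25 of 30 and 629 of 639 cells. Cldn5, a tight junction gene that defines endothelium, had a UMI in 16 of 639 of them and in 0 of the 30 PBS cells.

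Microglia were 13 cells in PBS and 1188 in NaIO3. In NaIO3 microglia Notch1 stood at 31.4 CPM (28.8 to 34.2), Hes1 at 22.4 CPM (20.2 to 24.8) and Id1 at 18.1 CPM (16.1 to 20.2), while Hes5 stood at 0.533 CPM (0.244 to 1.01). In PBS microglia, where 1 UMI is worth 22.0 CPM, Notch1 had 4 UMIs and the other 8 genes had none. The Notch1 level was 2.80-fold lower in NaIO3 microglia (0.761 to 7.22), an interval that includes 1, where 33.3% of 8360 genes were at least 2 times lower and 9.53% at least 2 times higher.

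Notch1 in photoreceptors gave the widest ratio of the 9 genes in any class. In rods it stood at 0.476 CPM (0.205 to 0.937, 8 UMIs in 5188 cells) in PBS and 22.4 CPM (20.4 to 24.6, 432 UMIs in 5564 cells) in NaIO3. It was 47.1-fold higher (23.7 to 110). In rods 11% of 7205 genes were at least 2 times higher and 3.16% at least 2 times lower, with a median log2 ratio of 0.27. Those shares are of genes past the filter of 20 CPM, which of the 9 only Notch1 passed in rods. Notch1 passed it through its NaIO3 level alone, in rods as in cones. A Notch1 UMI was found in 330 NaIO3 rods (5.93%) and 8 PBS rods (0.154%), and after thinning to 1000 UMIs in 1.67% (1.33 to 2.07) and 0%, 0 of 4902 rods (up to 0.0752%). In cones Notch1 stood at 1.80 CPM (0.823 to 3.42) and 26.7 CPM (21.1 to 33.3), 14.8-fold higher (7.43 to 33.6), where 8.49% of 7182 genes were at least 2 times higher and 2.33% at least 2 times lower. With cells of 2 gates counted in both, Notch1 in cones stood at 2.86 and 82.1 CPM. That count takes in Müller glia, of which 1 PBS and 174 NaIO3 cells also passed the cone gate.

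Levels of Müller genes in NaIO3 rods are given beside this. The NaIO3 rod level was 18.6% of the NaIO3 Müller level for Notch1, 1.49% for Sox9 and 1.45% for Sox2. Among the other members it was 86.6% for Dll1, 14.6% for Hey1, 12.7% for Hes5 and 11.2% for Id1. For Id3 it was 4.598% and for Hes1 1.0998%. The gate genes had 2.63% for Rlbp1, 1.19% for Slc1a3 and 1.06% for Aqp4, and Glul had 3.41%. Notch1 was thus not alone among the members in a share above 10%. Among rods with no UMI of the 3 Müller gate genes or of C1q (4833 in PBS, 4485 in NaIO3), Notch1 was 44.6-fold higher in NaIO3 (21.3 to 112). Sox9 there was 7.31-fold higher (3.74 to 15.9), at 4.81 CPM in NaIO3, and Hes1 had a ratio of 1.01 (0.438 to 2.32). In all rods the ratios were 47.1 for Notch1, 7.65 for Sox9 and 2.51 for Hes1. The part of Müller RNA in these ratios was not tested beyond these values.

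NaIO3 rods with a UMI of Edn2 or Fgf2, injury factors of photoreceptors, held more Notch1. They stood at 24.6 CPM (22.2 to 27.2, 3729 cells) against 13.5 CPM (10.1 to 17.8, 1835 cells) in the others, and were also deeper (median 2959 against 1702 UMIs). Dll1 in rods stood at 5.05 CPM (4.04 to 6.25) in PBS and 14.2 CPM (12.6 to 16.0) in NaIO3, a ratio of 2.81 (2.20 to 3.63). In cones, its highest class, Dll1 stood at 31.0 CPM (26.3 to 36.3) and 38.2 CPM (31.5 to 45.9), a ratio of 1.23 (0.958 to 1.58), which includes 1. With cells of 2 gates, Müller glia among them, counted in both they were 30.3 and 25.6 CPM, so the direction turned. Dll1 in NaIO3 Müller glia was close to its rod level, at 16.4 CPM.

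Hes5 did not reach the filter of 20 CPM in rods. It was lower in NaIO3 rods too, at 10.9 CPM (9.36 to 12.6) in PBS and 3.27 CPM (2.51 to 4.18) in NaIO3, 3.33-fold lower (2.49 to 4.51). Among rods with no Müller gate or C1q UMI its ratio was 0.334 (0.235 to 0.468). These rod levels were 2.86% and 12.7% of the Müller level in PBS and NaIO3. In bipolar cells Sox9 stood at 32.7 CPM (19.1 to 52.4) in PBS and 14.8 CPM (11.7 to 18.6) in NaIO3, 2.21-fold lower (1.22 to 3.78), where 7.31% of 7897 genes were at least 2 times lower and 10.7% at least 2 times higher. The direction turned with cells of 2 gates counted in both, with 28.4 CPM for PBS and 124 CPM for NaIO3. That count takes in Müller glia, of which 1 PBS and 72 NaIO3 cells also passed the bipolar gate.

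**Figure D5:**
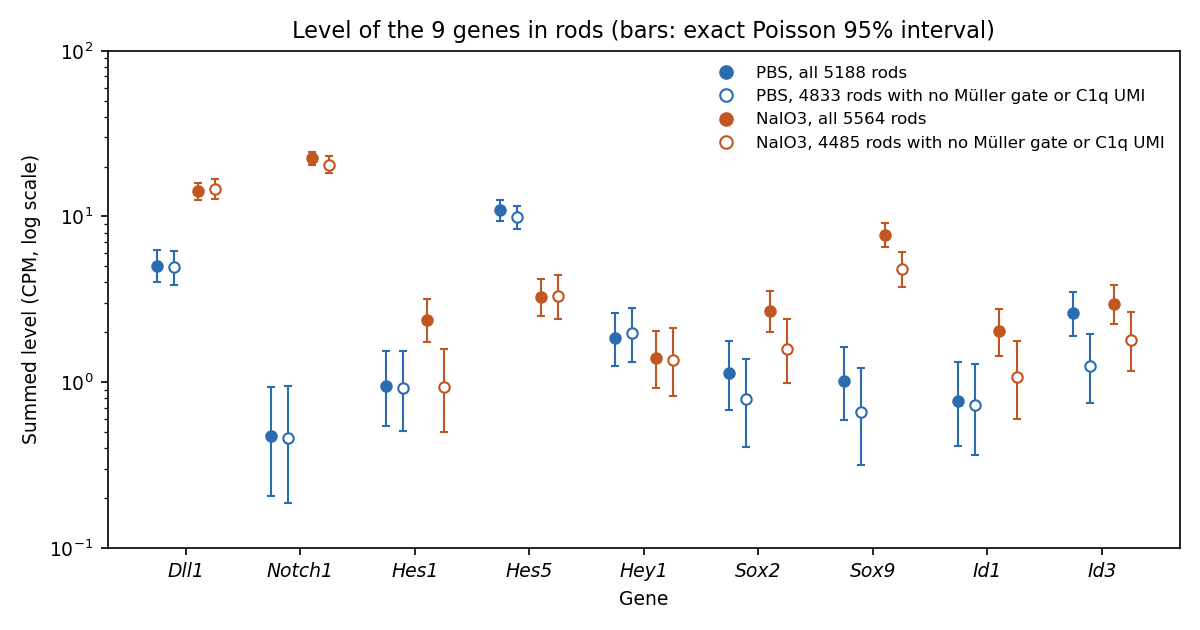
Summed level of each gene in rods (y axis, CPM, log scale) in PBS (blue) and NaIO3 (orange), over all rods (filled) and rods with no UMI of the Müller gate genes or C1q (open), with exact Poisson 95% intervals. Notch1 and Dll1 are higher and Hes5 lower in NaIO3 in both sets of rods, and the Hes1 ratio is 2.51 over all rods and 1.01 over the open circles. Only Notch1 passed the filter of 20 CPM over all rods, through its NaIO3 level alone.

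The genes most alike to each member were named by the Pearson correlation of log2(CPM + 10) over 11 class-by-library sums, with no test, as classes of 1 library share depth and free RNA. For Sox2 they were Aqp4 (0.995), the water channel gene of the gate, Plpp3 (0.994) and Tox3 (0.994). For Hes1 they were Gstm1 (0.987), Inf2 and Rras, and for Sox9 Mfap2 (0.988), Crym and Nr2e1, a nuclear receptor gene of neural stem cells. Hes5 was most like 1810010H24Rik (0.985), Atf5 and Tmem47. Notch1 was most like Pros1 (0.965), Tcf7l2 and Fbxw8, and Id3 most like Slc16a9 (0.991), Flt1 and Serpinh1.

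The genes lie on GRCm38 in GENCODE M21 as follows, all protein-coding. Hes1 is at chr16:30064384-30067796, Hes5 at chr4:154960923-154962371 and Hey1 at chr3:8663359-8667256. Notch1 is at chr2:26457903-26516663, Dll1 at chr17:15367354-15376872, Sox2 at chr3:34650405-34652461 and Sox9 at chr11:112782224-112787760. Id1 is at chr2:152736251-152737410 and Id3 at chr4:136143497-136145755.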

How the data were processed

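Unnormalised UMI counts were read from the authors' deposited Cell Ranger matrices of filtered barcodes (version 3.0.2 per the file headers, mm10 per the submitters' processing notes, annotation release not given in the sources used here). GENCODE M21 holds 30934 of the 31053 gene IDs. The PBS library held 6242 barcodes and 26605477 UMIs, the NaIO3 library 9746 and 75981079. Cells were kept with at least 500 UMIs, 300 genes and at most 15% mitochondrial UMIs. No doublet caller was run, and Müller glia that also passed another gate were kept, with alternatives that leave them out. Counts were summed over a class and divided by its total (CPM). In Müller glia 1 PBS UMI is worth 2.99 CPM and 1 NaIO3 UMI 0.0472 CPM. A gene counted as higher or lower at a ratio of 2, with a count of 0 set at 3 counts. No p-values were computed, since no group has a replicate. The members and lists were chosen with earlier results of these data known. Named genes are the 9 members, of each list the 4 highest in NaIO3 Müller glia and up to 4 in each direction past 2 times whose interval leaves out 1, and the genes most alike. Some genes that meet this rule are counted but not named. Limits on rod RNA and depth, and leaving out the pigment epithelium gate, the deepest PBS cell or cells of other gates with Flt1 not counted, were alternatives chosen after seeing the data. The scripts were tested on simulated data. Tools were Python 3.11.15, numpy 2.4.6, scipy 1.17.1, pandas 2.3.3, matplotlib 3.10.9 and, for TMM scaling, edgeR 4.0.16 under R 4.3.3.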

Additional observations from a re-analysis of the deposited data

Results flagged for a closer look

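For some genes, NaIO3 and PBS differed in one direction in Müller glia and in the other in another class. The difference between the classes was not tested, and each group is 1 library. In rods the ratio of NaIO3 over PBS was 2.51 for Hes1, 47.1 for Notch1, 2.39 for Sox2 and 2.62 for Id1, and in cones it was 14.8 for Notch1, while in Müller glia these genes had ratios of 0.659, 0.517, 0.704 and 0.163. Hes1, Sox2 and Id1 did not reach the filter of 20 CPM in rods. Sox9 had 0.452 in bipolar cells and 1.38 in Müller glia. With cells of 2 gates counted in both, Sox9 in bipolar cells read 28.4 CPM for PBS and 124 CPM for NaIO3. That count takes in Müller glia, of which 1 PBS and 72 NaIO3 cells passed the bipolar gate. It cannot tell whether Sox9 in bipolar cells moved as in Müller glia. Among rods with no UMI of the Müller gate genes or C1q, the ratios were 44.6 for Notch1 (21.3 to 112), 1.01 for Hes1 (0.438 to 2.32), 1.999 for Sox2 (0.947 to 4.43) and 1.49 for Id1 (0.638 to 3.58), so the intervals of the last 3 include 1.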

How the results depend on the processing

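Hes5, Id1 and Id3 were at least 2 times lower in NaIO3 Müller glia under all 21 alternative choices of cells and of scaling, and Hey1 in 19 of the 20 that gave it a value. Their ratios ranged from 0.0282 to 0.142 for Hes5, 0.0873 to 0.346 for Id1, 0.123 to 0.436 for Id3 and 0.146 to 0.534 for Hey1. Hes1 crossed 1 in 3 of the 21 (0.267 to 1.29), Notch1 in 1 (0.397 to 1.09), Sox2 in 5 (0.342 to 1.40) and Sox9 in 1 (0.730 to 2.75). The causes were not tested. The number of members at least 2 times higher was 1 instead of 0 with a Müller gate at 5 UMIs, with a gate by share of UMIs, in cells of 3000 to 20000 UMIs and with no filter beyond 1 summed UMI. The number at least 2 times lower, 4 as reported, was 3 with the gate at 5 UMIs. It was 5 without the pigment epithelium gate, without mitochondrial and photoreceptor genes in the total, and for the mean of per-cell CPM. It was 6 at 5% mitochondrial UMIs, without the top 10% of cells by UMIs and without the deepest PBS cell. Leaving out cells of another gate, with Flt1 counted or not, also gave 6. Over all genes, 1001 were higher and 868 lower. These became 1900 and 1795 at 5% mitochondrial UMIs, 1713 and 1401 without the top 10% of cells by UMIs, 1711 and 1426 for the mean of per-cell CPM and 1682 and 1471 without the deepest PBS cell. They became 674 and 379 with the gate at 5 UMIs, and 1518 and 1532 without cells of another gate, Flt1 not counted. The planned setting without cells of any other gate left 8 PBS and 51 NaIO3 cells, gave 846 and 1543, and moved the median log2 ratio of all genes by -0.67. The higher share of calls was 53.6% as reported, 64.0% at a gate of 5 UMIs and 35.4% in that last setting. Limiting rod markers to under 1% of UMIs moved the median by -0.11, and the cells with little rod RNA by -0.20. Counting cells of 2 gates in both moved 39 of 108 levels in other classes, and thinning to 2000 UMIs moved 13 of 18 shares. The 30 PBS Müller glia, with 334095 UMIs in all, limit every ratio. Whether the PBS library was selected with beads is not settled, so shares of classes are not compared. No paired analysis was possible because each group is 1 library with no replicate number.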
